A study of Rattus norvegicus with 4 samples.

Results

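Genes of extracellular and lysosomal proteases and of their inhibitors were examined in RNA sequencing of eye and retina from wild-type Long Evans rats, a strain with pigmented eyes. The members were all gene symbols of 6 families: serpins (Serpin with a letter and a number), Mmp, Timp, Adam and Adamts symbols with a number, and cathepsins (Cts with a letter). A letter after the number, as in Serpinb6a, was kept. This gave 76 of the 14485 gene names with a value: 21 serpins, 13 Mmps, 4 Timps, 14 Adams, 15 Adamts and 9 cathepsins. There were 4 labelled samples, 2 technical replicates per tissue, and each library was made from pooled RNA of 5 rats, whose age and sex the sources used do not state. For each tissue 1 column of values was analysed, called its library here. The tissue labels separate eye from retina, whereas all 4 sample descriptions speak of retina mRNA, and the libraries are named by the tissue label. Whether a column joins both technical replicates of its tissue is not stated in the sources used. With 1 column of values per tissue, the differences carry no p-value and could not be checked on replicates.

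Proteases cut other proteins, and each family is held in check by inhibitors. Serpins act as bait for serine proteases and are consumed in the reaction, although several members have lost that activity. Mmps are zinc proteases that cut matrix proteins and are blocked by Timps. Adams release the outer parts of membrane proteins, Adamts cut proteoglycans and procollagen, and cathepsins mainly degrade proteins in lysosomes. In the eye these families are best known from turnover of the corneal stroma, drainage of aqueous humour and degradation of photoreceptor discs by the pigment epithelium.

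Values are taken as RPKM, which divides reads by gene model length and library total, a unit inferred from the values. Library totals recovered from them were 28071917 reads for eye and 51944762 for retina. A member was tested where its value was at least 1 in either library, and called where log2((eye + 0.1) / (retina + 0.1)) reached 1 or -1, a fold of 2. Folds in the text are ratios of the values as deposited. Their exact 95% intervals come from recovered reads and cover counting error only. Markers set by the design matched the tissue labels in that all 6 rod and all 6 inner retinal neuron genes had their higher value in retina, while lens, cornea, stroma and muscle markers were higher in eye. Retina was present in both libraries, with 7575 as the summed value of the rod markers in eye and 14711 in retina.

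Most members with a large difference had the higher value in the eye library. Of 60 tested members, 29 were at least 2-fold higher in eye, against 17.8% of all 13259 tested genes, and 4 were at least 2-fold lower, against 7.95%. The median log2 ratio was 0.92 over tested members and -0.01 over all tested genes. At a fold of 4, 16 members were higher, against 9.07% of all tested genes, and 0 were lower, against 0.0905%. Because 12 members met the minimum in eye only, these counts lean toward eye by construction. Among the 47 members with at least 1 in both libraries, a subset chosen after the data were seen, 19 were higher, against 10.9% of such genes, and 4 were lower, against 7.87%. The counts moved with the scaling: with both libraries set to equal summed values, which lowered the median over all tested genes to -0.65, 22 members were higher, against 11.6% of all tested genes, and 9 lower, against 32.3%. The members' median was then 0.96 above that of all genes.

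The 6 families did not share 1 direction. Of the tested members 12 of 15 serpins, 4 of 4 Timps, 5 of 9 Mmps and 4 of 9 cathepsins were called higher, and 0 members of these families were called lower. With equal summed values these counts were 10, 2, 4 and 4, and 1 Mmp (Mmp17) was lower. Adams and Adamts were mixed as deposited, with 1 of 10 and 3 of 13 higher and 2 of each family lower. Over all tested genes 17.8% were higher and 7.95% lower, against 10% and 20% of Adams and 23.1% and 15.4% of Adamts. Both families hold few genes, so such shares are coarse. With equal summed values 0 Adams were higher and 4 lower, and 2 Adamts were higher and 4 lower. At that scaling 11.6% of all tested genes were higher and 32.3% lower. As deposited, 10 of the 12 members that met the minimum in eye only were called higher, as were 90.1% of all such genes. These 10 were Serpinb5, Serpinb6b, Serpinb10, Serpinb11, Timp4, Mmp19, Mmp23, Mmp28, Adamts12 and Adamts16, so the counts of their families lean toward eye. Summed over their members, serpins and Timps had a value of 861 in eye and 222 in retina, 3.87 times as much, while proteases of the other 4 families had 1470 and 811, 1.81 times as much. The sum over all genes was itself 1.56 times as large in eye. Lens genes weigh on that sum: 18 of them held 35.0% of the summed value in eye and 0.586% in retina. Setting the summed values equal therefore takes in this lens difference too.

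**Figure D1:**
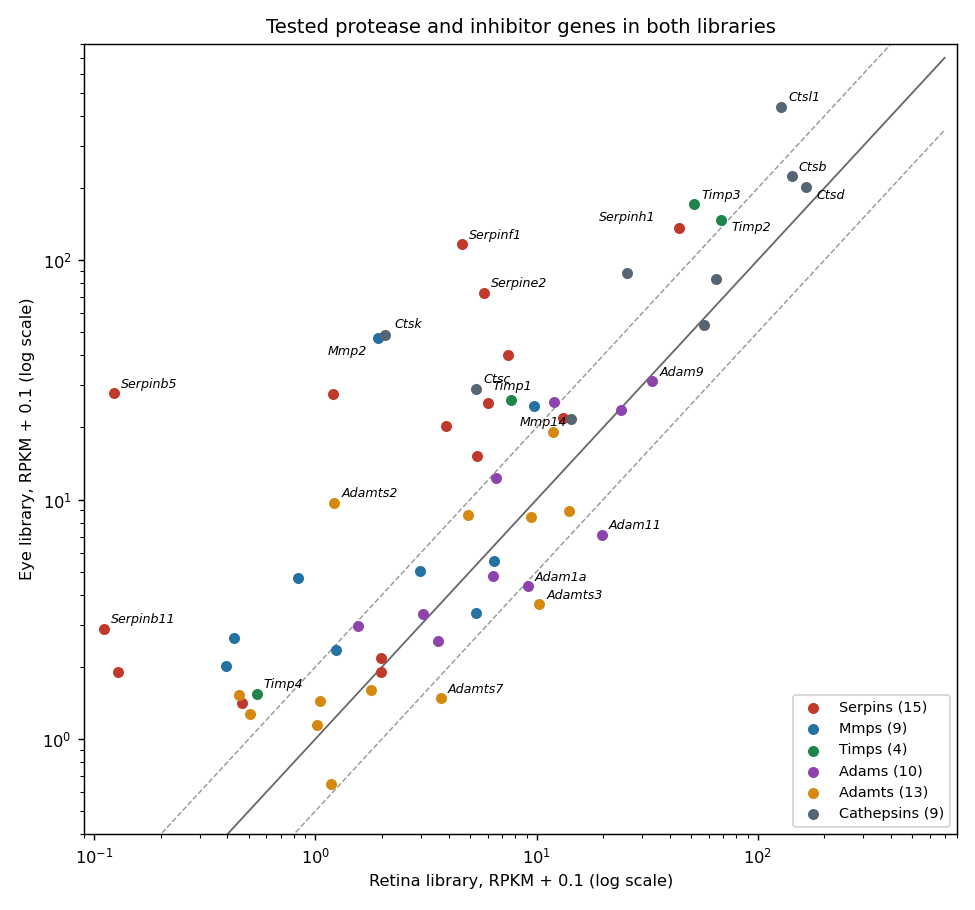
Values of the 60 tested members in the retina library (x axis) and the eye library (y axis), as RPKM + 0.1 on log scales, coloured by family. The solid line marks equal values and the dashed lines a fold of 2, and Serpinb5 lies farthest above the lines while Adam11, Adam1a, Adamts3 and Adamts7 lie below the lower one.

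Serpins of clade B, which mostly act inside cells, held the largest ratios. Serpinb5 (maspin), an epithelial serpin without known inhibitory activity, had a value of 27.8 in eye and 0.0224 in retina. Just 3 reads stood behind the latter, against 2008 in eye, and the ratio was 1239 (interval 423 to 6011). Serpinb11 was at 2.78 and 0.0101, with 149 reads in eye and 1 in retina (ratio 276, interval 48.7 to 10962). Serpinb10 was at 1.79 and 0.0273, a ratio of 65.7 (interval 17.5 to 553). In these 3 genes the retina library was close to empty, so the size of each ratio is poorly fixed, although each interval lay above 1. Serpinb3a had 0.884 in eye and was listed at 0 in retina, at least 24.7-fold higher against a floor of 3 reads. That bound leaves out the counting error of the eye reads, and the exact interval of the ratio begins at 19.2. Serpinb8 had 0.142 and 0.00641, and both genes were under the minimum for testing.

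These 5 genes neighbour each other on chromosome 13 of the reference assembly GRCr8, and none of them exceeded 0.0273 in retina. A second group on chromosome 17 behaved less evenly. Serpinb1a, an inhibitor of leukocyte elastase, was at 27.6 in eye and 1.09 in retina (25.2-fold, interval 16.6 to 39.9), whereas its close paralog Serpinb1b was at 1.81 and 1.87, with an interval of the ratio that included 1. Serpinb6a was at 25.2 and 5.90 (4.27-fold, interval 3.80 to 4.81) and its paralog Serpinb6b at 1.31 and 0.368. Serpinb9, an inhibitor of granzyme B, was the least different called serpin, at 15.1 and 5.25 (2.87-fold, interval 2.56 to 3.22). Serpinb9 was not called with equal summed values (log2 ratio 0.87), nor was Serpinb6b with 1 added (0.76). How reads were shared between such paralogs is not stated, so single values of the a and b copies are uncertain.

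Markers of several tissues moved with the clade B serpins, of which all tested members other than Serpinb1b were called higher. All 5 markers of corneal and conjunctival epithelium with a value were higher in eye, their summed value was 4543 in eye and 3.96 in retina, and 0 of them were listed at 0. All measured markers of skeletal muscle, stroma, lens, myelin and melanin synthesis were higher in eye as well, with summed values 267, 258, 94.1, 18.0 and 11.4 times those in retina. The part of these tissues in the serpin differences was not tested, and in bulk RNA fewer cells of a type and less RNA per cell cannot be told apart.

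The promoter of Serpinb5 is printed because this gene had the largest ratio. It shows the 250 bases before the annotated start from RefSeq on build GRCr8. In capitals is a match to TGANTCA, a loose form of the AP-1 motif that allows any middle base.
Serpinb5, chr13:23499953-23500202 (+ strand): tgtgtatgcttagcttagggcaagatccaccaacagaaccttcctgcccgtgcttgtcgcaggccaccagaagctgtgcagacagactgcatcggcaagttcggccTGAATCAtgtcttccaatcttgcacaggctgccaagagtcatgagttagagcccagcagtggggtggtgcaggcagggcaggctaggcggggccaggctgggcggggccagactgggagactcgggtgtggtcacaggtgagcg
The match lies 144 to 138 bases before the start. Promoters were matched for 54 of the 76 members. TGANTCA, searched on both strands, was found in 3 of the 54 (5.56%) and in 6.36% of all 27457 promoters. The letters were TGAATCA in Serpinb5 and TGAGTCA in Mmp3 and Adam19.

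Secreted serpins were the next group. Serpinf1 encodes pigment epithelium-derived factor (PEDF), a secreted serpin that limits vessel growth. Its value was 116 in eye and 4.50 in retina, 25.9-fold higher in eye (interval 23.1 to 29.2), which ranked it 417th among all genes of the eye library and 9100th in retina. Serpine2 (protease nexin 1), an inhibitor of thrombin, was at 73.1 and 5.69, 12.8-fold higher (interval 11.8 to 14.0). Serping1, the C1 inhibitor of complement, was at 40.0 and 7.29, 5.48-fold higher (interval 5.02 to 5.99), and Serpine3 was at 20.2 and 3.78. The gene of Serpine3 lies inside Ints6 in the reference, which was at 4.96 in eye and 4.13 in retina. These 4 secreted serpins were thus low but measurable in retina.

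Serpini1 (neuroserpin), an inhibitor of tissue plasminogen activator that neurons secrete, was at 21.7 and 13.1, 1.66-fold higher in eye (interval 1.56 to 1.77) and not called. Serpinh1 (Hsp47), a chaperone that folds collagen in the endoplasmic reticulum and inhibits no protease, was the most abundant serpin in both libraries. It was at 136 in eye and 43.9 in retina, 3.09-fold higher (interval 2.98 to 3.21), or a log2 ratio of 0.99 with equal summed values.

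The liver-type serpins of clade A were scarce in both libraries. Serpina1 (alpha-1 antitrypsin) had 0.970 in eye, from 43 reads and just under the minimum, and 0.195 in retina (4.97-fold, interval 2.74 to 9.46). Serpina3n had 0.0346 and 0.0749, and Serpina5 0.0168 and a value listed at 0. Serpind1 (heparin cofactor II) had 0.0342 and 0.0555. None of these 4 genes reached the minimum for testing.

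All 4 Timps were higher in eye as deposited. Timp3, which binds to the extracellular matrix and is made by the pigment epithelium, was at 171 in eye and 51.6 in retina, 3.32-fold higher (interval 3.20 to 3.44). Timp2 was at 147 and 67.8, 2.18-fold higher (interval 2.10 to 2.25), and was the most abundant Timp in retina. Timp1, which many cells induce in injury, was at 25.9 and 7.54, 3.43-fold higher (interval 2.96 to 3.97). Timp4 was scarce, at 1.45 and 0.441 (3.27-fold, interval 1.59 to 7.04). The order of the Timps differed between libraries only in which of Timp3 and Timp2 came first. With totals that omit lens genes Timp2 was not called (log2 ratio 0.93), and Timp2 (0.48) and Timp4 (0.97) were not called with equal summed values, under which no Timp changed sign. Timp4 was also not called with 1 added (0.76).

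Of the 4 Timp genes 3 lie inside genes of neurons. In the reference Timp1 lies inside Syn1, Timp3 inside Syn3 and Timp4 inside Syn2, all of them genes of synapsins, proteins of synaptic vesicles in neurons. The host genes had their higher values in retina, with 21.1 in eye and 39.3 in retina for Syn1, 2.41 and 3.95 for Syn3 and 7.69 and 16.1 for Syn2. Each host thus ran opposite to the Timp inside it. Timp2 overlaps Cep295nl, which was listed at 0 in eye and at 0.0325 in retina. Whether counting used strand is not stated, so reads of overlapping genes may not have been separated.

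The promoter of Timp3, the most abundant Timp of the eye library, is shown with its GC boxes (GGGCGG, either strand) in capitals.
Timp3, chr7:19459559-19459808 (- strand): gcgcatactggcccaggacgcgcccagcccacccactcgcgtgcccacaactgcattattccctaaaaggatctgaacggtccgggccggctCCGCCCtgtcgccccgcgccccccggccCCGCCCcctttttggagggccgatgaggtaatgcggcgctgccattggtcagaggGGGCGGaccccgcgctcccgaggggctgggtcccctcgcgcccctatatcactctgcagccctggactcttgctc
GGGCGG was found in 3 of 4 Timp promoters, in 30 of the 54 member promoters (55.6%) and in 32.4% of all promoters. For each motif, all 27457 promoters were taken whether or not the gene had a value here. The members and this background are thus unlike sets.

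Among the Mmps, 1 gene carried most of the difference. Mmp2 (gelatinase A), which cuts denatured and basement membrane collagen, was at 47.0 in eye and 1.83 in retina, 25.7-fold higher (interval 22.8 to 29.2). It made up nearly all of the gelatinase value in eye, 47.4, and most of it in retina, 2.20. Mmp9 (gelatinase B) was under the minimum, at 0.418 and 0.374. Mmp14, a membrane-anchored protease that activates the Mmp2 proenzyme together with Timp2, was at 24.5 and 9.59, 2.56-fold higher (interval 2.30 to 2.84), or a log2 ratio of 0.71 with equal summed values, which is not called. The 3 genes of this activation step, Mmp2, Mmp14 and Timp2, were all measurable in both libraries.

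The 3 tested Mmps outside the classic groups were also higher in eye, at low levels. Each met the minimum in eye only, a set in which 90.1% of all genes were called higher. Mmp23 was at 4.61 in eye and 0.737 in retina (6.25-fold, interval 4.46 to 8.92), Mmp19 at 2.54 and 0.327, and Mmp28 (epilysin) at 1.92 and 0.293. Of the other membrane-type members, Mmp15 and Mmp17 leaned to retina. Mmp15 was at 5.43 in eye and 6.30 in retina, 1.16-fold higher in retina (interval 1.05 to 1.28), and Mmp17, held by a lipid anchor, at 3.25 and 5.24, 1.61-fold higher in retina (interval 1.42 to 1.84). Mmp17 was called lower in eye with equal summed values (log2 ratio -1.30). Mmp16 (2.25 and 1.14) and Mmp11 (4.91 and 2.88) had the higher value in eye and were not called. Mmp11 overlaps Chchd10 in the reference, a far more abundant gene with 159 in eye and 176 in retina.

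Mmp3 (stromelysin 1), with broad matrix substrates, was under the minimum at 0.724 in eye and 0.0326 in retina, where 3 reads gave a ratio of 22.2 (interval 7.02 to 113). Mmp25 (0.0941 and 0.0305) and Mmp21 (listed at 0 in eye, 0.0415 in retina) were near 0. The Mmp3 promoter is shown as the only member promoter that held both the AP-1 motif and a TATA box (TATAAA, sense strand) in the 250 bases searched.
Mmp3, chr8:12925031-12925280 (+ strand): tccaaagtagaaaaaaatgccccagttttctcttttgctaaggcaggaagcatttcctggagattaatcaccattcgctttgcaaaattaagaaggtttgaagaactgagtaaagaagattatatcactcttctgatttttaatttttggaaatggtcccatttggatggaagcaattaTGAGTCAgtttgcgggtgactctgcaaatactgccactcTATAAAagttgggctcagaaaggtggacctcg
The AP-1 match lies 71 to 65 and the TATA match 32 to 27 bases before the start. A TATAAA was found in 4 of 54 member promoters (7.41%) and in 8.38% of all promoters.

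**Figure D2:**
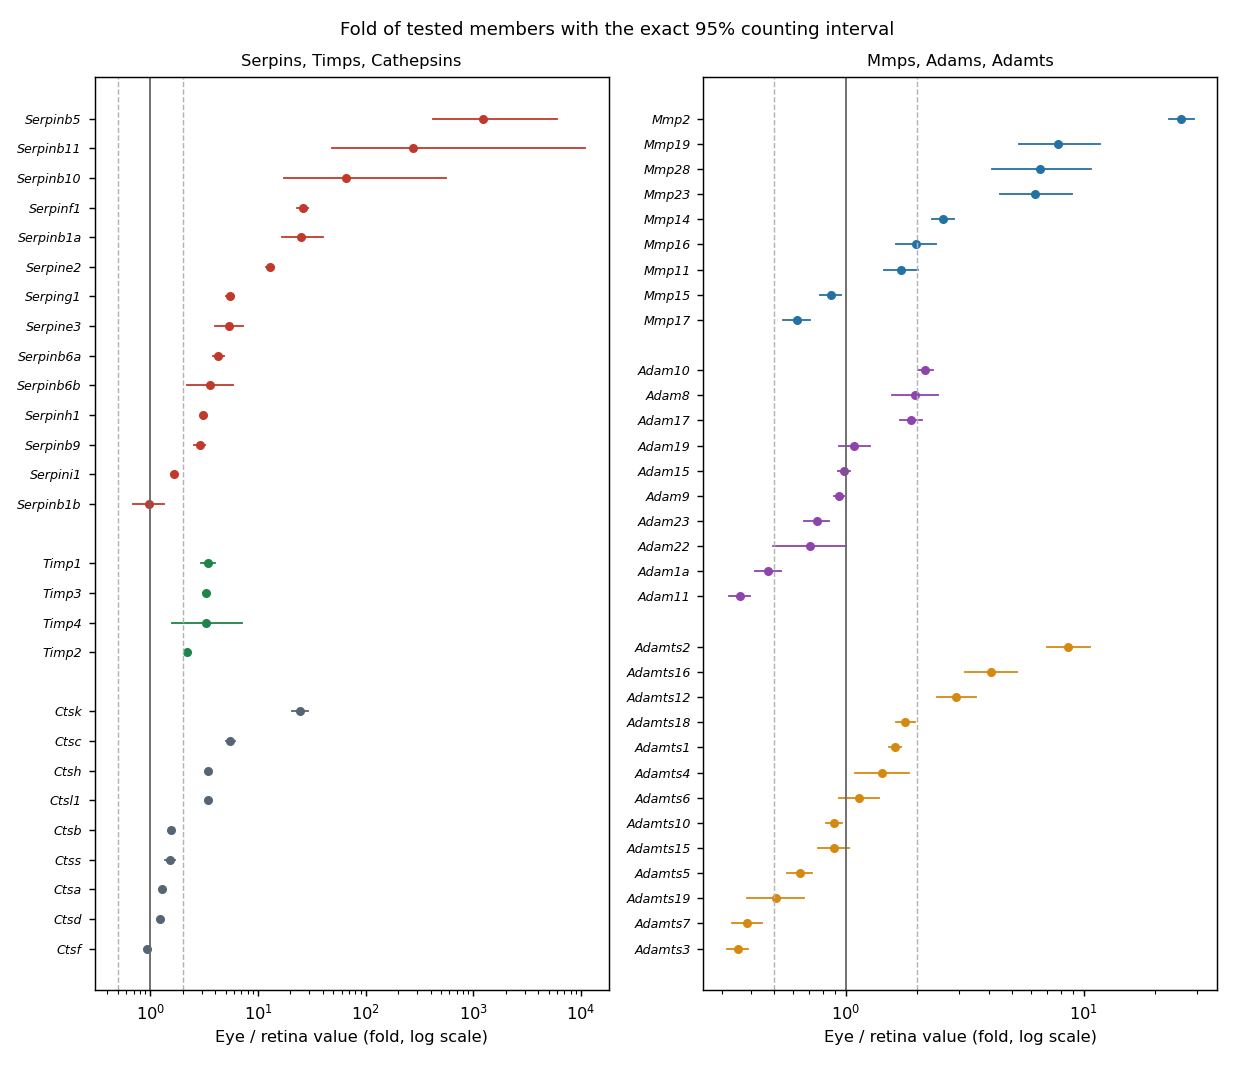
Eye to retina fold of tested members described in the text on a log scale, with horizontal bars for the exact 95% counting interval, the solid line at 1 and dashed lines at a fold of 2 in either direction. Bars are widest for Serpinb11, Serpinb5 and Serpinb10, whose retina values rest on 1 to 3 reads, and Adamts3, Adam11, Adamts7 and Adam1a lie lowest.

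The Adamts family spread to both sides. Adamts2, which removes the N-propeptide of fibrillar procollagens, was at 9.60 in eye and 1.12 in retina, 8.60-fold higher in eye (interval 6.98 to 10.7). Adamts3, a paralog that also acts on procollagen and on the lymphatic growth factor VEGF-C, was at 3.56 and 10.2, 2.86-fold higher in retina (interval 2.57 to 3.18). The related Adamts14 was under the minimum, at 0.443 and 0.0912. These 3 procollagen proteinases thus summed to 13.6 in eye and 11.4 in retina while the leading gene differed.

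A similar opposition held for Adamts7 and Adamts12, which share a domain layout and cut cartilage oligomeric matrix protein. Adamts7 was at 1.38 in eye and 3.59 in retina, 2.61-fold higher in retina (interval 2.25 to 3.03), and Adamts12 at 1.18 and 0.404, 2.91-fold higher in eye (interval 2.40 to 3.53). Adamts16 was at 1.42 and 0.349. Calls at such levels are fragile: with 1 added, Adamts7 (log2 ratio -0.95), Adamts12 (0.63) and Adamts16 (0.84) were not called, and Adamts12 was not called with equal summed values (0.81).

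None of the 4 proteinases that cut aggrecan and versican was called. Adamts1 was at 19.0 in eye and 11.8 in retina (1.61-fold higher in eye, interval 1.52 to 1.70) and Adamts5 at 8.85 and 13.9 (1.57-fold higher in retina, interval 1.39 to 1.78). Both genes neighbour each other on chromosome 11 of the reference and leaned to opposite libraries. With equal summed values Adamts5 was called lower in eye (log2 ratio -1.28). Adamts4 was at 1.34 and 0.944, with a sign that turned with equal summed values, and Adamts15 at 1.50 and 1.69.

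Among the others, Adamts18 was at 8.54 in eye and 4.81 in retina (1.78-fold higher in eye, interval 1.62 to 1.95), and Adamts10, linked to fibrillin microfibrils, at 8.33 and 9.33 (1.12-fold higher in retina, interval 1.04 to 1.21). Adamts19 was the member that met the minimum in retina only, at 0.548 and 1.08, and its log2 ratio of -0.86 became -1.04 with totals that omit lens genes. Adamts6 (1.04 and 0.918) changed sign with that scaling, and Adamts17 (0.641 and 0.681) was under the minimum.

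Of the 6 tested Adams with a zinc site, which shed the outer parts of membrane proteins, 4 had the higher value in eye. Adam10, which cuts Notch and the amyloid precursor protein, had 25.5 in eye and 11.8 in retina, 2.16-fold higher in eye (interval 2.00 to 2.33). Adam17, the protease that releases tumour necrosis factor, was at 12.1 and 6.45, 1.88-fold higher (interval 1.69 to 2.09). Adam8 was at 2.86 and 1.46. Adam10 alone was called, and it was not with totals that omit lens genes (log2 ratio 0.91) or with equal summed values (0.47). The Adams with the highest means of both libraries did not follow: Adam9 was at 31.1 and 33.3 (1.07-fold higher in retina, interval 1.02 to 1.12) and Adam15 at 23.5 and 23.9, with an interval that included 1. Adam19 was at 3.23 and 2.98 and changed sign with both scalings.

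The 3 tested Adams without a zinc site, which act in adhesion and bind Lgi proteins at synapses and on axons, all had the higher value in retina. Adam11 was at 7.04 in eye and 19.6 in retina, 2.79-fold higher in retina (interval 2.52 to 3.09). Adam23 was at 4.68 and 6.22, 1.33-fold higher in retina (interval 1.18 to 1.50), and Adam22 at 2.47 and 3.49, 1.41-fold (interval 1.00 to 2.02). Adam11 alone was called, and Adam23 (log2 ratio -1.03) and Adam22 (-1.11) were called with equal summed values. Summed values were 14.2 in eye and 29.3 in retina for this group, against 98.9 and 79.9 for the Adams with a zinc site. Their Lgi partners were not uniform, with Lgi4 at 12.5 in eye and 19.8 in retina, Lgi3 at 3.95 and 7.83, and Lgi2 at 3.06 and 2.61, none of them called. Lgi1 was under the minimum, at 0.745 and 0.598.

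Adam1a, known from sperm, had 4.25 in eye and 9.01 in retina, 2.12-fold higher in retina (interval 1.87 to 2.40), and was not called with 1 added (log2 ratio -0.93). Adam33 had 0.405 in eye from 37 reads and was listed at 0 in retina, at least 22.8-fold higher against a floor of 3 reads, with an exact interval of the ratio that begins at 17.7. Adam28 had 0.0458 in eye and was listed at 0 in retina, and Adam7 and Adam3a were listed at 0 in both libraries.

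The 4 members called lower in eye were set beside the retinal markers. The 12 markers of rods and inner retinal neurons had log2 ratios from -1.32 (Grm6) to -0.48 (Cnga1), with medians of -1.02 for rods and -0.81 for inner neurons. Adamts3 (-1.49) and Adam11 (-1.47) lay below each of the 12, also under each setting tried. Adamts7 (-1.32) was level with Grm6, and Adam1a (-1.07) lay among the markers. With 1 added Adamts7 (-0.95) lay below 6 of the 12. The part of retinal neurons in these values was not tested.

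The promoter of Adam10 is shown with a CACGTG site in capitals inside a longer match, GTCACGTG, the core letters of the CLEAR element known from lysosomal genes.
Adam10, chr8:80226612-80226861 (+ strand): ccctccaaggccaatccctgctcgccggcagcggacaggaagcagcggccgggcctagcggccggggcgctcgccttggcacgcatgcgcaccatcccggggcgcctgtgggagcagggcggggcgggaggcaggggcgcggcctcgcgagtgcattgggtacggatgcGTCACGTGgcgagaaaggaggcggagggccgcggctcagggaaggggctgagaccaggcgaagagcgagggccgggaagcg
GTCACGTG, searched on both strands, was found in 2 of 54 member promoters (3.70%) and in 1.78% of all promoters, and the other member was Ctsd. The shorter CACGTG was found in 4 member promoters (7.41%) and in 5.79% of all.

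Cathepsins were the most abundant members. They summed to 1188 in eye and 603 in retina, or 0.227% and 0.18% of the summed value of each library. Ctsl1 (cathepsin L), a lysosomal cysteine protease, led the eye library at 438 against 128 in retina, 3.43-fold higher (interval 3.34 to 3.52), and ranked 65th among all genes there and 306th in retina. Ctsd, the aspartic protease that degrades rod outer segments in the pigment epithelium, led the retina library, at 203 in eye and 165 in retina (1.23-fold higher in eye, interval 1.20 to 1.26). Ctsb, another cysteine protease, was at 224 and 142 (1.57-fold, interval 1.53 to 1.61). The leading cathepsin thus differed between libraries, and the ratio of Ctsl1 lay beyond the interval of either of the others.

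The largest cathepsin ratio belonged to Ctsk, a collagen-cutting cathepsin best known from osteoclasts and fibroblasts. Ctsk was at 48.4 in eye and 1.97 in retina, 24.6-fold higher (interval 20.7 to 29.3). Its neighbour in the reference, Ctss, which processes the invariant chain in antigen-presenting cells, was at 21.6 and 14.2 (1.52-fold, interval 1.38 to 1.69). Ctsc, which activates serine proteases of immune cell granules, was at 28.9 and 5.21, 5.54-fold higher (interval 5.00 to 6.14), and Ctsh, an aminopeptidase, at 88.4 and 25.5, 3.46-fold higher (interval 3.26 to 3.67). These 4 called cathepsins, Ctsk, Ctsc, Ctsh and Ctsl1, stayed called under every scaling tried.

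The remaining cathepsins lay near equal. Ctsa, a serine carboxypeptidase that protects lysosomal glycosidases, had 83.3 in eye and 64.4 in retina, and Ctsf at 53.3 and 57.1 (interval of the ratio 0.891 to 0.977). Ctsa, Ctsd and Ctss had the lower value in eye with equal summed values (log2 ratios -0.27, -0.34 and -0.03). Ctsd lies inside the span of Tnni2, on the opposite strand, in the reference. This muscle troponin gene had 429 in eye and 0.198 in retina, and the share of its reads in the Ctsd value was not tested.

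The Ctsd promoter is shown because it held 2 matches to the CLEAR core, in capitals.
Ctsd, chr1:206968822-206969071 (- strand): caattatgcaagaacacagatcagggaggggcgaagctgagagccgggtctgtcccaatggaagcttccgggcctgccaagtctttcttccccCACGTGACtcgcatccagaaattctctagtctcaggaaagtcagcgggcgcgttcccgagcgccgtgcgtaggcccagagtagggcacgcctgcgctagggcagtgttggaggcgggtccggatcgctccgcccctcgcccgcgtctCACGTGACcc
They lie 157 to 150 and 10 to 3 bases before the start. A match describes letters in this window and says nothing about binding.

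Other cell types moved with several of these genes. All 6 markers of stroma and connective tissue were higher in eye, with summed values of 2176 in eye and 8.42 in retina, as were Mmp2, Ctsk, Serpinf1, Serpine2 and Adamts2. Of 6 pigment epithelium markers 5 were higher and Best1 was under the minimum (0.355 and 0.470), with sums of 1288 and 306. Of 6 macrophage and microglia markers 5 were higher, with sums of 106 and 32.7, while Csf1r was not called (11.3 and 6.26). None of these markers was listed at 0 in either library. Their part in the members' differences was not tested.

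**Figure D3:**
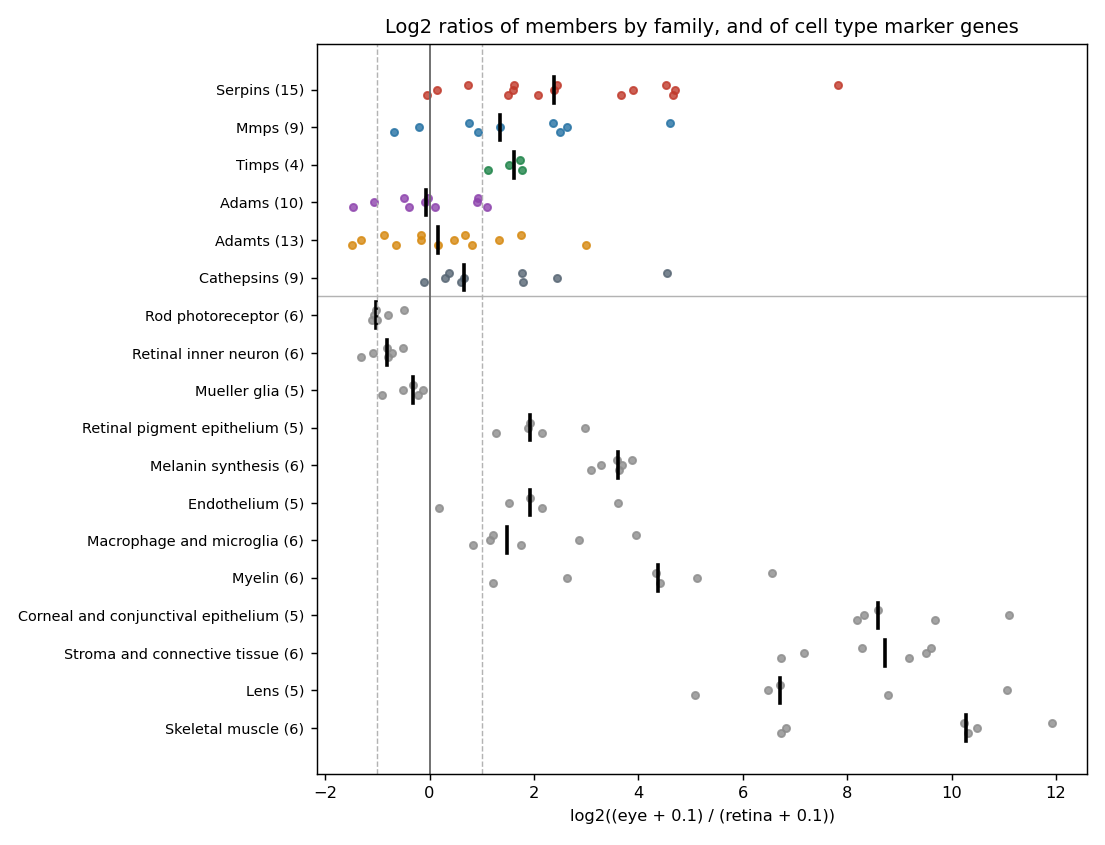
Log2 ratio of eye to retina for each tested member by family (coloured) and for marker genes of 12 cell types or tissues (grey), with black bars at the medians and dashed lines at a fold of 2. Adams centre near 0, at -0.06, and serpins at 2.39, while markers run from -1.02 for rods to 10.27 for skeletal muscle.

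Genes outside the 6 families that belong to the same systems were listed as well. Of 134 listed genes 100 had a value and 85 were tested, and 39 of these were higher in eye and 2 lower, against 17.8% and 7.95% of all tested genes, with a median log2 ratio of 0.85. With totals that omit lens genes 34 were higher and 7 lower, against 15.7% and 13.3% of all tested genes. With equal summed values 30 were higher and 14 lower, against 11.6% and 32.3% of all tested genes. As for the members, counts of higher genes lean toward eye by construction. Of all genes that met the minimum in eye only, 90.1% were called higher. In the plasminogen system both tested activators were higher: Plat (tissue plasminogen activator), the target of Serpini1, had 32.2 in eye and 15.0 in retina, and Plau (urokinase) at 3.79 and 0.159.

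Inhibitors of cathepsins were abundant. Of 5 tested cystatins and related genes 4 were higher in eye and 0 lower, against 17.8% and 7.95% of all tested genes. Cst3 (cystatin C), secreted by the pigment epithelium, was the most abundant, with 1138 in eye and 592 in retina, and was not called, and Cstb was at 93.4 and 38.4. Csta, an epithelial cystatin, was at 20.2 and 0.0478. The value of Cst3 exceeded that of every cathepsin in both libraries.

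Among 18 tested inhibitors of other types 6 were higher and 1 lower, against 17.8% and 7.95% of all tested genes. Pebp1 (315 in eye and 341 in retina) and Aplp2 (234 and 284) were the most abundant and were not called. The lower one was Pcsk1n, an inhibitor of a prohormone convertase, at 90.9 and 200.5. Reck, a membrane inhibitor of Mmps, was at 18.7 and 17.0 and was not called.

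Of 17 other metalloproteases 9 were higher and 1 lower, against 17.8% and 7.95% of all tested genes. The lower one was Cpe, a carboxypeptidase of neuropeptide processing, at 235 in eye and 503 in retina. Ece1 (42.6 and 55.5) and Nrd1 (48.8 and 47.0) followed in abundance and were not called. Of 19 other serine proteases 10 were higher and 0 lower, against the same shares of all tested genes. The most abundant by the mean of both libraries were Htra1 (118 and 63.3) and Tpp1 (52.9 and 59.7), which were not called, and Prss23 (56.2 and 13.9), which was higher. Of the 10 higher serine proteases, Prss8, Fap, Dpp4, Cma1, Klk6 and Klk8 met the minimum in eye only. Of 14 lysosomal and cytosolic proteases 6 were higher and 0 lower, again beside 17.8% and 7.95%. These 6 were 5 calpain genes and Bace2, whereas Capns1 (152 and 92.2) and Lgmn (124 and 106), the most abundant, were not called. Of 10 Adamts-like genes and Adam partners 2 were higher, a share near that of all tested genes (17.8%), and Tspan5, a tetraspanin that guides Adam10, was at 56.6 and 38.2.

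**Figure D4:**
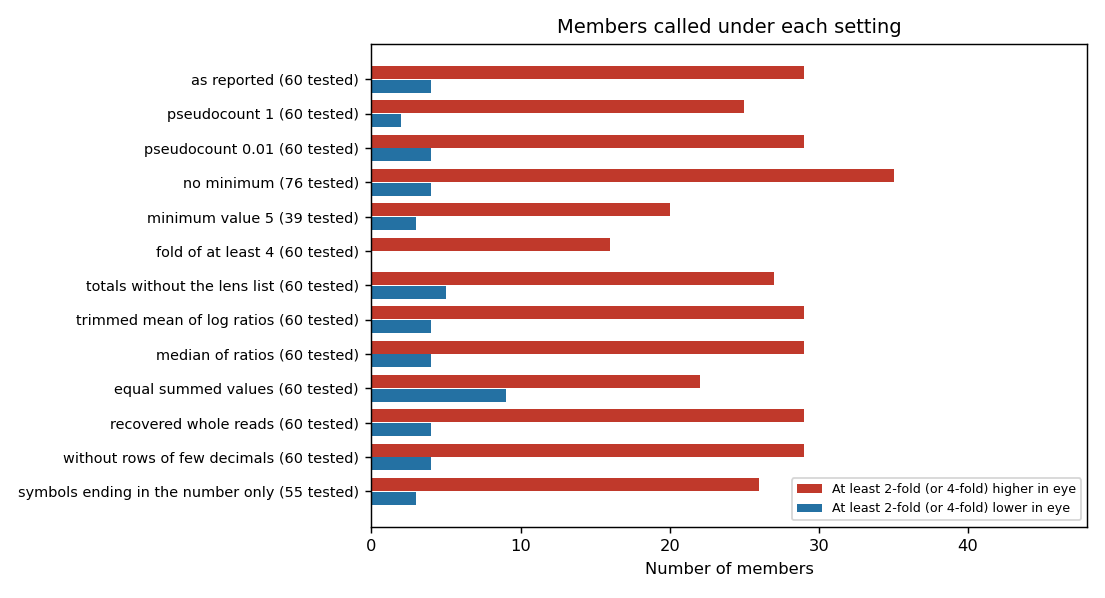
Number of members at least 2-fold higher (red) or lower (blue) in the eye library under each setting, with the number tested in brackets and a fold of 4 in the setting so named. Counts of higher members run from 16 to 35 and of lower members from 0 to 9. Shares of all tested genes, not drawn, run from 9.07% to 18.4% higher and from 0.0905% to 32.3% lower.

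Counting error was small for most members. The interval of the ratio excluded 1 for all 29 higher and all 4 lower members, and for 21 of the 27 members not called. Among those whose interval included 1 were Serpinb1b, Adam15, Adam19, Adamts6 and Adamts15. Sampling of animals and library preparation are not covered by these intervals.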

How the data were processed

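For each tissue 1 deposited column of values was used. Per the submitters' processing notes GSNAP, HTSeq and build rn4 were used, while versions, annotation and strand use are not stated in the sources used. The deposited values are taken as RPKM, inferred from the values. Library totals were found as the whole number given most often by 704 short genes with a length in the GRCr8 table (124 genes for eye, 117 for retina). The next most frequent were an exact multiple for eye (56143834, 119 genes) and an exact divisor for retina (25972381, 62 genes). The margin for eye was thus narrow, and the eye reads and the intervals depend on this choice. These totals turned the values of 13980 of 13980 genes into whole reads, to within 0.6 units of the last printed decimal. The reads are the smallest that fit and may be a shared multiple. They hold 71.4% (eye) and 63.7% (retina) of the totals. Of 14533 rows, 7 marked ND (0 members) were dropped, and of repeated names the row with more decimals was kept. Read recovery and calling were tested on simulated data. Intervals are Clopper-Pearson intervals of the reads.

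The members and lists were chosen with earlier results of these data known. Values were given for all Timps, the 3 highest means, 3 highest and 2 lowest ratios of each other family (at least 3 in the higher library) and members called lower, and for others beside their role. Members under the minimum and Csta, Reck and the Lgi genes were named after their values were seen. Some results are not reported here. Alternatives were another added value, minimum, fold, scaling or symbol reading. They were extended to the listed genes and neuron markers after the data were seen. The trimmed mean left out 30% of ratios and 5% of levels at each end. Python 3.11.15, numpy 2.4.6, pandas 2.3.3, scipy 1.17.1 and matplotlib 3.10.9 were used.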

Additional observations from a re-analysis of the deposited data

How the results depend on the processing

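The number of members higher in eye, 29 as reported, was 16 at a fold of 4, 19 with the minimum met in both libraries and between 20 and 35 under the other settings. The share of all genes higher was 17.8% as reported, 9.07% at a fold of 4 and 10.9% with the minimum met in both libraries. Under the other settings it lay between 11.6% and 18.4%. The number of members lower, 4 as reported, was 2 with 1 added and 0 at a fold of 4, and it was 9 with equal summed values. In the same order, the share of all tested genes lower was 7.95%, 4.94%, 0.0905% and 32.3%. The median log2 ratio, 0.92 as reported, was 0.70 with 1 added, 1.10 with a minimum of 5, 0.75 with the minimum met in both libraries (a setting chosen after seeing the data), 0.74 with totals that omit lens genes and 0.32 with equal summed values. The settings differ by construction: a larger added value shrinks the ratios of low values, a stricter minimum leaves fewer genes, and scaling shifts the ratios of all genes alike before 0.1 is added. Of the called members 87.9% were higher in eye as reported and 71.0% with equal summed values, against 69.2% and 26.4% of all called genes. Leaving the fold of 4 aside, 37 of 60 tested members kept their call and sign under all settings in which they were tested. Of the others, 7 changed sign under some scaling, none of them called as reported. Taking symbols that end in the number alone gave 26 higher and 3 lower of 55 tested, against 17.8% and 7.95% of all tested genes. No paired analysis was possible because each tissue has 1 column of values, and for the same reason no replicate could be left out. Depth limits the serpins near 0 in retina, whose ratios rest on 1 to 3 reads there.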
